A study of Mus musculus with 3 samples.

Results

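The 33 genes described here encode the enzymes that add and remove acetyl groups on histones, 2 bromodomain proteins that read the mark and 4 corepressor scaffolds that carry deacetylases. They were taken as a list of symbols, matched by GENCODE M21 identifier, out of 55536 mouse genes in the larger deposited gene table, and all 33 were found. The list holds 11 zinc-dependent histone deacetylases (Hdac1 to Hdac11), 7 sirtuins (Sirt1 to Sirt7), 9 acetyltransferases (Ep300, Crebbp, Kat2a, Kat2b, Kat5, Kat6a, Kat6b, Kat7 and Kat8), the readers Brd2 and Brd3, and the scaffolds Ncor1, Sin3a, Sin3b and Rcor1. Polyadenylated RNA was sequenced from primary mouse regulatory T cells (Treg) that are labelled activated, male and 3 weeks old. Treg are CD4 T cells that express Foxp3 and hold other immune cells in check. The labels name 3 libraries as technical replicates of 1 biological replicate, called library 1, library 2 and library 3 below, and they name neither a genetic modification nor an activating agent. With 1 group there was no contrast between conditions, and each SD is the spread between these 3 libraries.

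Acetyl groups on histone tails loosen nucleosomes and are bound by bromodomains, which bring transcription machinery to active promoters and enhancers. Zinc-dependent deacetylases of class I work inside large corepressor complexes, class IIa members shuttle between nucleus and cytoplasm, and sirtuins consume NAD as a co-substrate. In Treg these enzymes are also known for acting on the Foxp3 protein itself, which is acetylated by p300 and Kat5 and deacetylated by class II enzymes and Sirt1.

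Reads assigned to genes numbered 28419259 to 31959927 per library. The 7 Treg markers examined were all detected, with Foxp3 at 134.5, 149.6 and 106.3 TPM in libraries 1, 2 and 3 (TPM is a level scaled for transcript length and library total). Library 1 stood apart in red-cell genes. All 8 erythroid markers were highest there, with summed levels of 14050, 1181 and 813.6 TPM in libraries 1, 2 and 3. It also held the highest value of 5 of 6 proliferation markers, whose sum was 436.2, 220.9 and 308.8 TPM. Detected markers numbered 4 of 5 for B cells (summed level 40.21 to 67.69 TPM), 3 of 5 for monocytes (44.27 to 96.54 TPM), 0 of 4 for dendritic cells (1.82 to 5.32 TPM), 2 of 2 for CD8 T cells (20.38 to 28.36 TPM) and 2 of 3 for natural killer cells (19.29 to 32.49 TPM), with Ncr1 listed at 0 in each library. The part of these cells in the differences below was not tested. In bulk RNA, fewer cells of a type and less RNA per cell cannot be told apart.

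Nearly all of these genes were expressed. At 1 TPM or more in each library, 31 of the 33 genes were detected (93.94%), against 48.13% of all 22028 protein-coding genes. The genes below that level were Hdac9, with 0.24, 0.75 and 0.31 TPM, and Hdac11, with 0.63, 0.62 and 0.28 TPM. The median of the 33 means was 30.19 TPM, and that of the 31 detected genes was 35.08 TPM, against 30.05 TPM over the 10601 detected protein-coding genes. Levels ran over a wide range, with Ncor1, Hdac1, Sin3b, Brd2 and Sirt7 each above 100 TPM in every library.

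**Figure D1:**
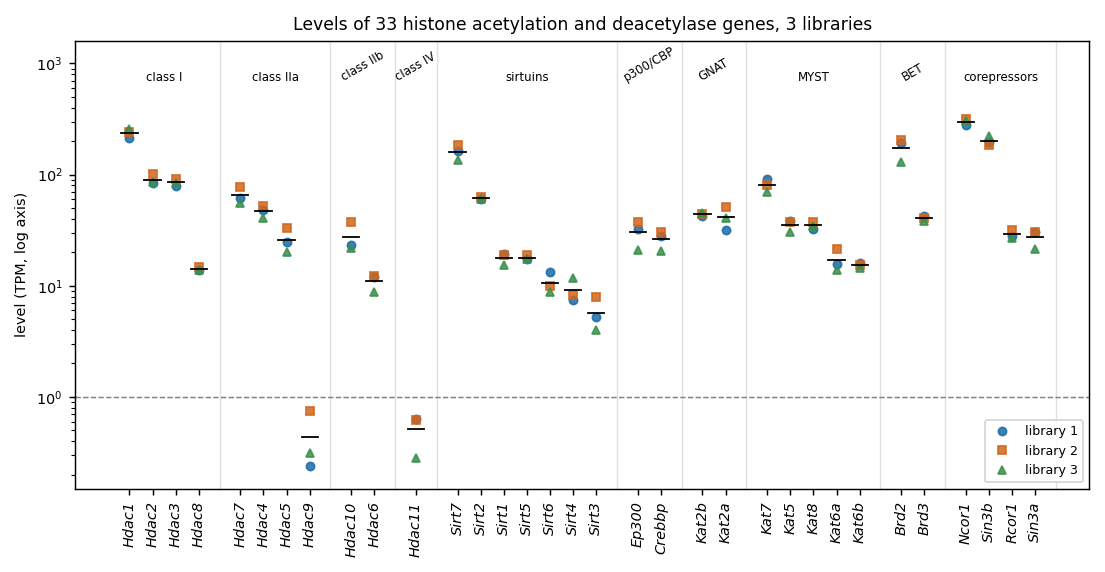
Level of each of the 33 genes in TPM (log axis) by family, with 1 point per library and a black line at the mean of 3 libraries. The dashed line marks the detection level of 1 TPM, below which only Hdac9 and Hdac11 lie, and the spread between libraries is small beside the range between genes.

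The libraries differed for most of these genes by more than counting error, though usually by little. A chi-square test set each gene's 3 counts against the sizes of the libraries, with Benjamini-Hochberg adjustment over the 17190 genes that had at least 10 reads on average. Of the 33 genes, 30 passed at 0.05 (90.91%). The background was high, since 80.0% of all genes tested passed, and 89.11% of the 11109 genes with 100 or more reads on average. This test compares libraries of 1 biological sample and says nothing about conditions. The median fold between the highest and the lowest library was 1.233 for the 33 genes (from 1.056 to 2.011), against 1.471-fold over all genes tested and 1.334-fold over those with 100 or more reads. Of the 33 genes, 7 both passed and reached 1.5-fold, namely Hdac5, Hdac9, Hdac10, Sirt3, Sirt4, Ep300 and Kat2a, where 40.0% of all genes tested did so. Hdac8, Hdac11 and Sirt5 did not pass (adjusted p = 7.63e-01, 1.42e-01 and 2.36e-01 in the chi-square test). Between the libraries that remained, 23 genes passed without library 1, 25 without library 2 and 22 without library 3, where 65.1%, 66.2% and 54.1% of all genes tested did. The calls lost were those of Hdac3, Hdac9, Sirt1, Sirt6, Kat5, Kat8 and Ncor1 without library 1. Without library 2 they were Hdac9, Hdac10, Sirt3, Kat2b and Rcor1, and without library 3 Hdac6, Sirt2, Sirt4, Kat5, Kat6b, Brd3, Sin3a and Sin3b.

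Among class I deacetylases, Hdac1 was the most abundant. Hdac1, a catalytic subunit of the NuRD, SIN3 and CoREST complexes (ENSMUSG00000028800.15, mm10 chromosome 4, 129516104 to 129542713, minus strand), stood at 212.8, 241.8 and 257.9 TPM in libraries 1, 2 and 3 (237.5 ± 22.9, SD, n = 3). Its close relative Hdac2, which sits in the same complexes (chromosome 10, 36974544 to 37001889), had 83.41, 101.4 and 86.12 TPM. Every Hdac1 value lay above every Hdac2 value. The log2 ratio of TPM + 1 was 1.39 ± 0.17, larger than the spread by the rule used for all pairs, which asks for 1 sign in each library and a mean above 2 SD. Hdac3, the catalytic subunit of the NCoR complexes, had 78.82, 91.23 and 84.75 TPM, and Hdac1 exceeded it by a log2 ratio of 1.47 ± 0.11. Hdac8, which works outside these complexes, was lower in each library, at 13.86, 14.79 and 13.74 TPM. Hdac1 made up 39.4 ± 3.83% of the summed TPM of the 11 zinc-dependent deacetylases.

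The mouse genome holds processed copies of Hdac1, the closest of which is near-identical. The processed pseudogene Gm10093 (chromosome 17, 78491582 to 78493025, plus strand) matched the coding part of Hdac1-201 at 99.4% over 1444 bases, with 9 mismatches in all and an identical run of up to 450 bases. A stretch of 150 coding bases that holds 7 of the 9 mismatches is given here for both, with capitals at the bases that differ. It starts at base 421 of Hdac1-201 and at base 337 of Gm10093, read 5′ to 3′ along each transcript.
Hdac1-201: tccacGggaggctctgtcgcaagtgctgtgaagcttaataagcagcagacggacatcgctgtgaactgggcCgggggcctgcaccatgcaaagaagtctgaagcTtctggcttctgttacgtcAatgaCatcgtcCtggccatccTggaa
Gm10093: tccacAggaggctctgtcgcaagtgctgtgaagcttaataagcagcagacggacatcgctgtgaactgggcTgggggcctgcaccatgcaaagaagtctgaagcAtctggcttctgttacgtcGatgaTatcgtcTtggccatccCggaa
Even in this window, which holds most of the differences, the stretches are alike in nearly every base. Outside it, the 1444 aligned bases have still fewer letters that tell the genes apart. In the larger table Gm10093 had 3.84, 5.15 and 5.63 TPM against the values above 200 TPM for Hdac1. The smaller deposited gene table, made from another alignment and annotation, held only 434, 440 and 477 counts for Hdac1, against 7477.0, 7691.4 and 10671.4 expected counts in the larger table. That is 5.33% on average, where the median of the 33 genes was 52.49% and that of 6088 genes with 1000 or more reads was 39.41%, and 5.88% of those genes lay below Hdac1. On that table, divided by gene length, the log2 ratio of Hdac1 to Hdac2 was -1.91 and that to Hdac3 was -1.53. The order of Hdac1 above Hdac2 and Hdac3 therefore holds in the larger table only, and the part of the copies in this was not tested. The difference of Hdac1 between libraries passed there (1.341-fold, chi-square adjusted p = 8.02e-89) and not in the smaller table (1.082-fold, chi-square adjusted p = 5.09e-01). Hdac1 also matched the processed pseudogenes AC125456.1 (96.3% over 1450 bases) and Gm4864 (94.6% over 1469 bases), neither above 0.07 TPM in any library. Outside Hdac1, other genes matching at 90% or more identity over 500 or more bases were found for Kat2b, Kat6b, Ncor1 and Sirt5. None of these exceeded 0.76 TPM in any library.

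Class IIa deacetylases bind MEF2 factors and have weak catalytic activity of their own. Hdac7, known from thymocyte selection (chromosome 15, 97792664 to 97844502), led them at 62.2, 77.8 and 55.27 TPM. Hdac4 followed at 47.75, 51.92 and 40.43 TPM and Hdac5 at 24.6, 32.84 and 20.32 TPM. The order Hdac7, Hdac4, Hdac5 held in each library, and all of these were highest in library 2 and lowest in library 3. The log2 ratio of Hdac7 to Hdac5 was 1.31 ± 0.090 and that of Hdac4 to Hdac5 0.84 ± 0.17, the latter falling to 0.31 on complete coding transcripts and to -0.22 in the smaller table. Of the Hdac4 TPM, 37.2 ± 2.69% fell on Hdac4-205, an entry of 4 exons whose coding sequence is annotated as incomplete, and 31.0 ± 2.76% on the full-length Hdac4-202. Hdac5 passed the chi-square test at 1.545-fold (adjusted p = 8.86e-27) and stayed past it without any 1 library. With a trend in transcript length and GC content removed, the Hdac5 difference was 1.335-fold. In that setting Hdac5 and Hdac7 were lowest in library 1, and Hdac4 stayed lowest in library 3. Hdac9 had 24, 45 and 33 expected counts, too few for a firm order of the libraries, and its call (2.011-fold, chi-square adjusted p = 1.66e-02) was lost without library 1 or library 2 (adjusted p = 7.14e-02 and 4.25e-01 in the same test).

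In class IIb, Hdac10 and Hdac6 changed places with the transcripts counted. Hdac10, which deacetylates polyamines (chromosome 15, 89123307 to 89128700), had 23.45, 37.5 and 21.71 TPM, and Hdac6, a cytoplasmic enzyme that deacetylates tubulin, had 11.97, 12.23 and 8.82 TPM. Over all transcripts Hdac10 was the higher in each library, with a log2 ratio of Hdac6 to Hdac10 of -1.22 ± 0.31. Retained-intron transcripts took 45.0 ± 3.25% of the Hdac10 TPM and other noncoding entries 27.8 ± 6.06%. On complete coding transcripts the ratio turned to 0.38 ± 0.49, which is not larger than the spread, with 7.39 TPM left for Hdac10 and 9.74 TPM for Hdac6. Hdac10 was 1.693-fold higher in library 2 than in library 1 (chi-square adjusted p = 9.84e-41). That call rested on library 2, since libraries 1 and 3 differed by 1.09-fold (chi-square adjusted p = 8.62e-02). Hdac11, the class IV enzyme, had 23.5, 23.2 and 14.0 expected counts and was near the limit of the count filter.

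Sirt7 was the most abundant sirtuin. This nucleolar and chromatin-bound deacetylase (chromosome 11, 120618372 to 120625240) had 164.7, 182.7 and 135.4 TPM, which is 56.6 ± 2.90% of the summed sirtuin TPM. Sirt2, the mainly cytoplasmic member, had 60.38, 62.65 and 60.83 TPM, and Sirt1, the nuclear enzyme that acts on Foxp3 and many transcription factors, had 19.41, 18.79 and 15.31 TPM. Sirt2 exceeded Sirt1 in each library (log2 ratio of Sirt1 to Sirt2 -1.73 ± 0.17). Sirt6, a chromatin deacetylase with a role in DNA repair, had 13.3, 9.94 and 8.71 TPM and lay far below Sirt7 (log2 ratio -3.81 ± 0.27). Retained-intron transcripts held 32.5 ± 2.91% of the Sirt7 TPM, and 98.02 TPM remained on its complete coding transcripts, still the highest of the sirtuins.

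The mitochondrial sirtuins lay below Sirt7 and Sirt2, but Sirt5 was near Sirt1 and above Sirt6 in each library. Sirt5, which removes succinyl and malonyl groups, had 17.36, 18.75 and 17.42 TPM. Sirt4 had 7.51, 8.26 and 11.79 TPM, and Sirt3, the main mitochondrial deacetylase, had 5.21, 7.92 and 4.0 TPM. Sirt5 exceeded Sirt3 in each library, while the log2 ratio of Sirt3 to Sirt4 was -0.62 ± 0.67 and was not larger than the spread. Almost all Sirt4 signal fell outside its coding transcripts. Retained-intron entries took 80.5 ± 8.19% of it, with Sirt4-206 at 40.2 ± 2.39% and Sirt4-204 at 35.3 ± 5.31%, and complete coding transcripts had 0.64 TPM on average. On complete coding transcripts Sirt3 exceeded Sirt4 by a log2 ratio of 1.09 ± 0.13. Sirt3 was 1.736-fold higher in library 2 than in library 3 and Sirt4 1.701-fold higher in library 3 than in library 1 (chi-square adjusted p = 1.88e-05 and 7.26e-05). Neither call held without its highest library, with adjusted p = 8.24e-02 for Sirt3 without library 2 and 2.15e-01 for Sirt4 without library 3 in the same test.

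Among acetyltransferases, Kat7 was the most abundant. Kat7, the HBO1 enzyme that acts on histones H3 and H4 (chromosome 11, 95274259 to 95310246), had 90.99, 80.27 and 69.2 TPM and held 24.7 ± 2.68% of the summed acetyltransferase TPM. It exceeded Kat8, the MOF enzyme of the MSL and NSL complexes, which had 32.69, 37.74 and 34.82 TPM (log2 ratio 1.16 ± 0.25, or 0.20 ± 0.20 in the smaller table, where it was not larger than the spread). Kat5, the TIP60 enzyme known to acetylate Foxp3, had 38.21, 37.78 and 30.24 TPM and did not differ from Kat8 beyond the spread (0.008 ± 0.21). Kat5 was below Kat8 by more than the spread on complete coding transcripts, with a log2 ratio of -0.68 ± 0.33. Kat6a had 15.61, 21.53 and 13.75 TPM and Kat6b 16.14, 15.32 and 14.5 TPM, with a ratio of 0.12 ± 0.30. The Kat6a and Kat6b values overlapped over all transcripts, while on complete coding transcripts Kat6a was the higher by 1.11 ± 0.37. Retained-intron entries held 38.3 ± 0.803% of the Kat6b TPM.

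Ep300 and Crebbp, the paralogous coactivators p300 and CBP, stood at near-equal levels. Ep300 (chromosome 15, 81585351 to 81652077) had 32.13, 37.24 and 21.19 TPM and Crebbp (chromosome 16, 4081328 to 4213997) 28.23, 30.67 and 20.75 TPM. Ep300 was slightly above Crebbp in each library, but the log2 ratio of 0.16 ± 0.12 was below 2 SD. On complete coding transcripts it was -0.23 ± 0.16. Both were highest in library 2 and lowest in library 3, by 1.563-fold for Ep300 and 1.249-fold for Crebbp (chi-square adjusted p = 1.79e-89 and 6.07e-29). With a trend in transcript length and GC content removed, the Ep300 difference was 1.316-fold, still lowest in library 3. In that setting the Crebbp difference was 1.099-fold and Crebbp was lowest in library 1.

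Kat2a and Kat2b, the GCN5 and PCAF enzymes that take the same place in SAGA-type complexes, also stood close together. Kat2a (chromosome 11, 100704746 to 100712465) had 31.78, 50.81 and 40.92 TPM and Kat2b (chromosome 17, 53566861 to 53672720) 42.64, 44.44 and 45.33 TPM. Kat2b varied little, and Kat2a was below it in libraries 1 and 3 and above it in library 2 (log2 ratio -0.12 ± 0.30). Kat2a was 1.594-fold higher in library 2 than in library 1 (chi-square adjusted p = 2.10e-53). Without library 1 its difference was 1.128-fold and still passed (chi-square adjusted p = 2.45e-05).

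Deacetylase RNA exceeded acetyltransferase RNA. The 18 deacetylases summed to 847.6, 972.0 and 843.1 TPM and the 9 acetyltransferases to 328.4, 355.8 and 290.7 TPM, a ratio of 2.581, 2.732 and 2.9 in libraries 1, 2 and 3. The log2 ratio was 1.45 ± 0.084, and without Hdac1 it was 1.00. In the smaller table it was 0.82. Class I enzymes (426.9 ± 33.1 TPM) and sirtuins (283.5 ± 28.0 TPM) made up most of the deacetylase sum, followed by class IIa at 138.1 ± 23.7 TPM and class IIb at 38.6 ± 9.98 TPM. On the other side the 5 MYST enzymes summed to 182.9 ± 17.7 TPM, the GNAT pair to 85.3 ± 10.5 TPM and p300 with CBP to 56.7 ± 13.4 TPM. These sums hold unequal numbers of genes and say nothing of enzyme activity.

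Brd2, a BET reader of acetylated histones, carried a large share of its RNA outside complete coding transcripts. Brd2 (chromosome 17, 34112023 to 34122634, minus strand) had 191.3, 205.0 and 128.9 TPM and Brd3 (chromosome 2, 27445579 to 27507662) 42.84, 40.64 and 38.27 TPM. Brd2 exceeded Brd3 in each library (log2 ratio 2.06 ± 0.30) and was lowest in library 3 (1.372-fold, chi-square adjusted p = 6.09e-127). With the length and GC trend removed, the Brd2 difference was 1.082-fold and the lowest value was in library 1. Transcripts annotated for nonsense-mediated decay held 37.64, 35.92 and 34.67% of the Brd2 TPM, the only one of the 33 genes with 20% or more in that class, which 7.99% of detected protein-coding genes reached. Most of it was Brd2-207, with 32.69, 29.39 and 27.3% of the gene's TPM, followed by the coding Brd2-202 with 22.6 ± 1.63%. Brd2-207 contains an exon of 92 bases (34116598 to 34116689) that is annotated with these ends in 1 of the 19 Brd2 transcripts. The exon is not a multiple of 3 bases, and the annotated stop codon lies just past its end. The exon is shown here with the bases that follow it up to the stop codon, which is in capitals. The stretch runs 5′ to 3′ on the transcript from base 1817 to base 1927. No exon of the coding Brd2-203 overlaps this exon, and overlap with other coding entries was not examined.
Brd2 extra exon: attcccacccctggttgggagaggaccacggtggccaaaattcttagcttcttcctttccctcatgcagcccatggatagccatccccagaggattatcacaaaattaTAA
The annotated coding sequence of Brd2-207 is 438 bases long, against 2394 bases in Brd2-203. These shares are estimates that split reads between overlapping transcripts, and no junction reads were examined. Brd3 had its largest share on Brd3-206, an incomplete coding entry (37.3 ± 8.16%), and 14.2 TPM on complete coding transcripts.

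The scaffolds Ncor1 and Sin3b had high gene levels that rest on short transcripts. Ncor1, the platform that activates Hdac3 (chromosome 11, 62316426 to 62458541, minus strand), had 279.9, 319.4 and 300.8 TPM, the highest of the 33 genes. Coding entries annotated as incomplete took 80.07, 81.44 and 81.63% of it, with Ncor1-212 at 52.2 ± 1.92%. On complete coding transcripts Ncor1 had 36.63 TPM and ranked 10 among the 33 genes. The log2 ratio of Ncor1 to Hdac3 was 1.81 ± 0.011 over all transcripts and -0.72 ± 0.13 on complete coding ones. Its reads divided by the longest coding transcript gave -0.37 ± 0.058 for the same ratio. Rcor1, the CoREST scaffold (chromosome 12, 111039351 to 111115901), had 28.1, 31.84 and 26.92 TPM. Its 2 annotated transcripts are complete coding ones, so all of its TPM falls in that class by annotation.

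Sin3b, a scaffold with paired amphipathic helices that bind repressors (ENSMUSG00000031622.16, chromosome 8, 72723285 to 72758201, plus strand), had 198.2, 183.6 and 223.9 TPM. Its paralog Sin3a (chromosome 9, 57072040 to 57128366) had 30.29, 30.59 and 21.49 TPM, below Sin3b in each library (log2 ratio of Sin3a to Sin3b -2.85 ± 0.42). Of the Sin3b TPM, 91.61, 89.80 and 92.73% fell on Sin3b-202, and 3.53 ± 1.66% on the full-length Sin3b-201. Sin3b-202 has 7 exons and 293 codons before its stop, against 19 exons and 1098 codons in Sin3b-201. The transcripts share 5 of the 6 introns of Sin3b-202, whose last exon (72739730 to 72739906) lies inside an intron of Sin3b-201. Where they part is shown here as coding sequence, 5′ to 3′, with the shared end of the sixth exon in lower case. Capitals mark the rest of the coding sequence of Sin3b-202 up to and including its stop codon, and for Sin3b-201 the start of its seventh exon.
Sin3b-202: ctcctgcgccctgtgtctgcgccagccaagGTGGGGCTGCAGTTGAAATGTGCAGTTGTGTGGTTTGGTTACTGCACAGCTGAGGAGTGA
Sin3b-201: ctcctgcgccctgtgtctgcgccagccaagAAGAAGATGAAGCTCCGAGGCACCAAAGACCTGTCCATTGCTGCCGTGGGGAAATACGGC
The sequences are identical up to the exon end and come from different exons after it, and the short form ends 60 bases later. Per base of the longest coding transcript Sin3b ranked 7 among the 33 genes instead of 3, and its log2 difference from Sin3a shrank to -1.23 ± 0.30. Sin3a was divided between the complete coding Sin3a-201 (36.8 ± 2.597%) and Sin3a-208 (29.95 ± 4.89%).

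**Figure D2:**
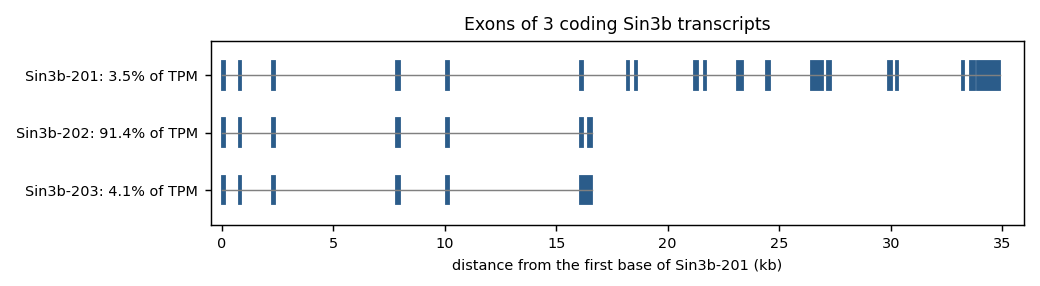
Exons (boxes) and introns (lines) of 3 coding Sin3b transcripts, drawn to scale by distance in kb from the first base of Sin3b-201, with the mean share of the gene's TPM in 3 libraries. Sin3b-202, with 91.4% of the TPM, ends after 7 exons, before the middle of the gene.

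Over the 33 genes, complete coding transcripts held a median of 71.87% of the TPM, against 80.01% over 10601 detected protein-coding genes. They held 50% or more in 25 of the 33 genes, where 77.29% of detected protein-coding genes reached that share. Retained-intron transcripts reached 20% in 9 genes, led by Sirt4, where 22.34% of detected protein-coding genes did. Incomplete coding entries reached 20% in 5 genes (Ncor1, Brd3, Hdac4, Kat2b and Kat5), where 9.7% did. A single transcript held 50% or more in each library in 16 of the 33 genes. Among them were Crebbp-201 (91.2 ± 3.92%), Hdac2-201 (91.5 ± 4.68%), Hdac1-201 (88.2 ± 2.31%), Kat6a-201 (84.8 ± 12.6%) and Ep300-201 (69.0 ± 1.01%). The same share of all detected protein-coding genes is not reported here, so this count cannot be called high or low.

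**Figure D3:**
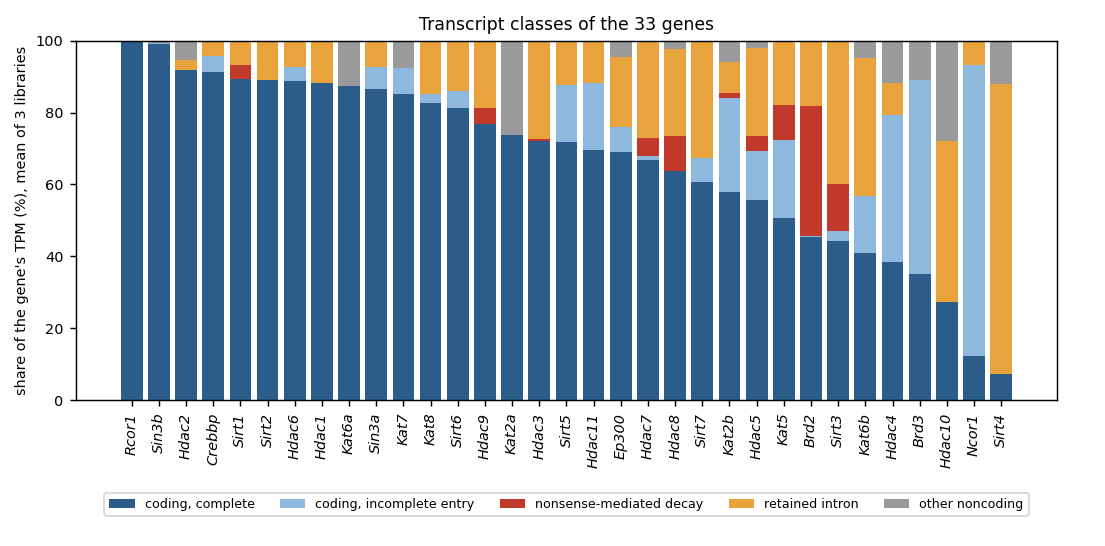
Share of each gene's TPM by annotated transcript class (stacked bars, mean of 3 libraries, in percent), ordered by the share on complete coding transcripts. The share runs from 100.0% for Rcor1, which has no annotated transcript of another class, to 7.38% for Sirt4. Ncor1 is mostly on incomplete entries, and Brd2 alone holds a large nonsense-mediated decay share.

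In 15 of 20 pairs of paralogs or partners the ratio was larger than the spread. The 5 others were Sirt3 to Sirt4, Ep300 to Crebbp, Kat2a to Kat2b, Kat6a to Kat6b and Kat5 to Kat8, so 4 of these are pairs of acetyltransferases. The widest ratios were those of Hdac7 to Hdac9 (5.53 ± 0.13, or 7.04 ± 0.50 with a pseudocount of 0.1, since Hdac9 is below 1 TPM), Sirt6 to Sirt7, Rcor1 to Hdac1 (-2.99 ± 0.19) and Sin3a to Sin3b. On complete coding transcripts 17 pairs were larger than the spread, but the sign of the mean turned for 6 pairs, namely Hdac6 to Hdac10, Sirt3 to Sirt4, Ep300 to Crebbp, Kat2a to Kat2b (0.22 ± 0.38), Kat5 to Kat8 and Ncor1 to Hdac3.

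**Figure D4:**
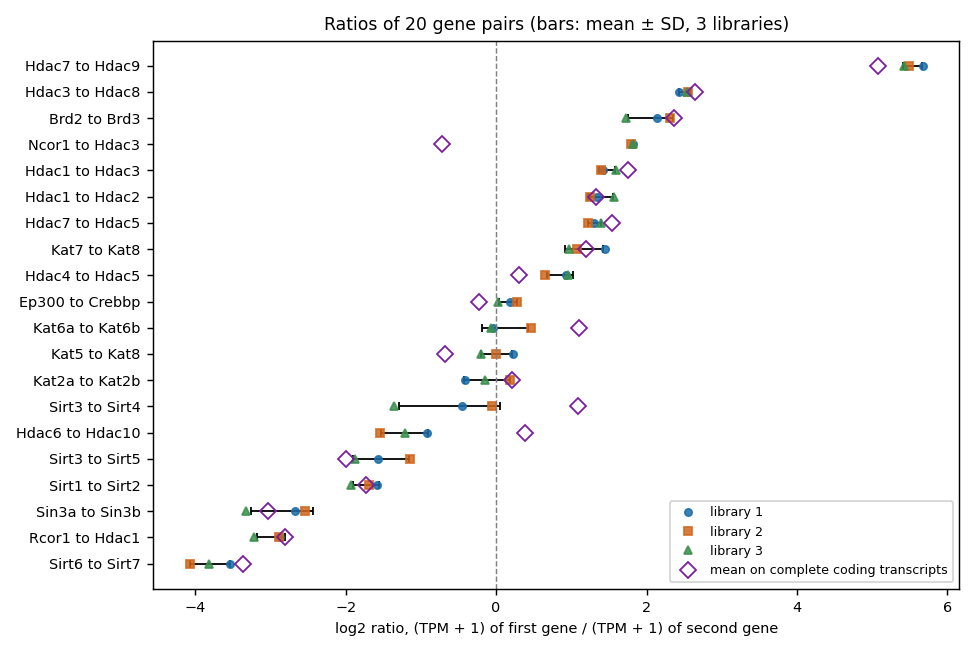
Log2 ratio of TPM + 1 between the genes of 20 pairs, with 1 point per library, bars for the mean ± SD of 3 libraries and open diamonds for the mean on complete coding transcripts. Most bars stay clear of 0, and the diamonds for Ncor1 to Hdac3 and Hdac6 to Hdac10 lie on the other side of 0 from their points.

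The list as a whole sat highest in library 2 and lowest in library 3. Of the 33 genes, 19 were highest in library 2 by normalized counts (CPM) (57.58%, against 29.34% of all 17190 genes tested) and 18 were lowest in library 3 (54.55%, against 37.32%). Only 2 genes, Hdac8 and Sin3b, were lowest in library 2. The median log2 difference from the other libraries was 0.15 in library 2 and -0.15 in library 3, against -0.008 and 0.01 over all genes tested. Library 1 lay between, at -0.058. The 7 genes highest in library 3 were Hdac1, Hdac3, Sirt2, Sirt4, Kat8, Ncor1 and Sin3b. Longer genes tended to be lower in library 3. Across the 33 genes the Spearman rho of that difference with main transcript length was -0.373, and across all genes tested -0.27, both as descriptions over genes that share the same libraries. With the trend in length and GC content removed, 24 genes were highest in library 2, 12 were lowest in library 3 and 21 were lowest in library 1. Shares of all genes tested in that setting are not reported here, so these counts cannot be read as a trait of the list.

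**Figure D5:**
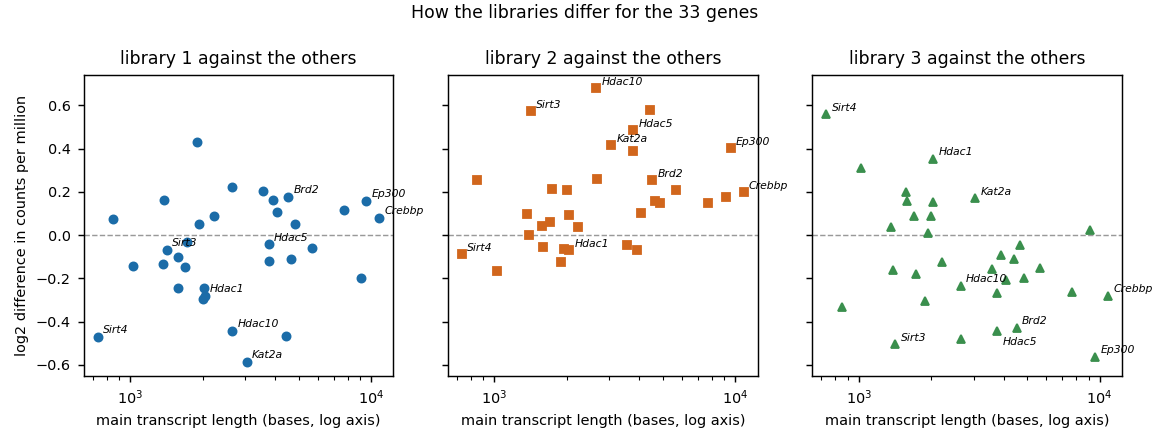
Log2 difference in normalized counts (CPM) between 1 library and the mean of the others for the 33 genes, against main transcript length in bases (log axis), with 1 panel per library. In library 3 long genes such as Ep300 and Crebbp lie below 0 and the short Sirt4 above it, while most points in library 2 lie above 0.

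Genes that work in the same complexes were nearly all present. Of 83 such genes, in lists set by complex, 82 were detected and 75 passed the chi-square test (90.36%), a share near that of the 33 genes and near the 89.11% of all genes with 100 or more reads. The median level was 41.86 TPM and the median fold between libraries 1.253. Without library 3, 49 of the 83 passed, where 54.1% of all genes tested did. As among the 33 genes, more of them were lowest in library 3 (45) than in library 1 (25) or library 2 (13), where 37.32%, 31.65% and 31.02% of all genes tested were lowest.

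Among partners of class I deacetylases, the NuRD genes had the highest list median, at 108.2 TPM. All 11 NuRD genes passed, with the methyl-CpG binder Mbd2 at 363.1 ± 58.1 TPM, the histone chaperone Rbbp4 at 268.7 ± 21.4 TPM and Gatad2b lowest at 9.49 ± 1.73 TPM. The widest NuRD difference was in Gatad2a, with 134.7, 116.7 and 73.29 TPM. In the SIN3 list 10 of 11 passed, from Sap18 at 189.5 ± 32.8 TPM and Arid4b at 107.3 ± 12.8 TPM down to Sap30, which had 11.44, 15.7 and 5.65 TPM and the widest difference of that list (2.507-fold). In the NCoR list 3 of 4 passed, with Gps2 at 147.2 ± 4.65 TPM and Tbl1xr1 at 46.8 ± 11.2 TPM. In the CoREST list 6 of 7 passed, with the demethylase Kdm1a at 74.9 ± 6.31 TPM and Zmym2 at 49.5 ± 7.16 TPM, and Rcor2, at 1.36, 0.66 and 0.32 TPM, was the only partner not detected. All 4 genes of the MiDAC and MIER list passed, from Mier1 at 62.7 ± 3.20 TPM and Dnttip1 at 50.2 ± 2.26 TPM to Mier3 at 9.58 ± 1.63 TPM, and Mier2 differed most (1.562-fold).

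Partners of the acetyltransferases were detected throughout. In the SAGA and ATAC list 8 of 10 passed, with Supt20 at 152.0 ± 19.5 TPM, Tada1 at 44.5 ± 5.43 TPM and Tada2a, which did not pass, lowest at 8.09 ± 1.14 TPM. Supt7l differed most there, with 21.63, 12.82 and 21.9 TPM. All 8 TIP60 complex genes passed, from Brd8 at 72.4 ± 7.94 TPM and Yeats4 at 53.8 ± 6.06 TPM to Epc2 at 4.07 ± 0.309 TPM, and Ing3 differed most (1.348-fold). Of 14 scaffolds of the MYST enzymes 12 passed, with Kansl2 at 87.6 ± 7.34 TPM, Ing4 at 75.3 ± 5.93 TPM and Jade3 lowest at 3.07 ± 0.694 TPM. Of these 14, 10 were lowest in library 3, where 37.32% of all genes tested were. The partner lists varied in this, from 2 of 11 SIN3 genes to 3 of 4 MiDAC and MIER genes. Kansl3 differed most among the 14 scaffolds, with 51.33, 62.02 and 34.4 TPM. Other acetyltransferases and coactivators passed in 6 of 6 cases, led by Naa60 at 111.9 ± 13.3 TPM and Ncoa3 at 109.8 ± 21.5 TPM, with Clock lowest at 10.9 ± 2.44 TPM and Ncoa2 differing most (1.661-fold).

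Among other readers of acetylated histones 7 of 8 passed. Mllt3, a YEATS-domain reader, had 115.2, 122.8 and 157.7 TPM and differed most in this list (1.455-fold), and Taf1 was lowest at 12.9 ± 2.52 TPM.

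Exons of 16 of the 33 genes overlap exons of another annotated gene. In 3 the overlap with another gene taken alone exceeds 10% of the gene's exon bases. Those are Hdac4 with Gm26720 (22.36%), Hdac11 with Gm44002 (15.43%) and Kat5 with Rnaseh2c (12.14%), each on the opposite strand. Gm26720 had 0.79 TPM and Gm44002 0.08 TPM on average, while Rnaseh2c had 79.41 TPM, above Kat5. Sirt3 overlaps both Ric8a (7.0% of its exon bases) and Psmd13 (5.73%) on the opposite strand. Ric8a had 119.1 TPM and Psmd13 202.0 TPM, against a mean of 5.71 TPM for Sirt3. Brd2 overlaps H2-DMa, which had 288.0 TPM, over 4.6% of its exon bases on the opposite strand. Strandedness of the libraries is not given in the sources used here, and without strand the reads of such overlaps cannot be told apart.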

How the data were processed

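Polyadenylated RNA-seq libraries of activated regulatory T cells from mouse were used, named by the labels as technical replicates 1, 2 and 3 of 1 biological replicate. P-values therefore tell whether the libraries differ by more than counting error, a difference that may be technical. The test has no term for further spread between libraries, so very small p-values also reflect the number of reads. The common coefficient of variation between libraries, estimated by edgeR, was 0.376. The 33 genes, the partner lists, pairs and markers were chosen with earlier results of these data known.

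Per the deposited library notes, mm10 and GENCODE M21 underlie the transcript table and the larger gene table. Expected counts were estimated by the authors from transcriptome alignments and are not normalized. TPM is the authors' length-scaled value with a fixed total per library, and FPKM is the authors' value per length and read number, per the file headers. The smaller deposited table holds whole-number read counts on GENCODE M4 and served as an alternative, since its most abundant genes are compressed. Strandedness, like the kit, aligner and quantifier, is not given in the sources used here. Gene reads numbered 30362256, 28419259 and 31959927 in libraries 1, 2 and 3, and spike-in and transfer RNA entries (0.166% to 0.229%) were left out.

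Expected counts were rounded and set against effective library sizes (TMM, edgeR 4.0.16 in R 4.3.3) in a chi-square test with 2 degrees of freedom, for genes averaging 10 or more reads, with Benjamini-Hochberg adjustment over all genes. No quasi-likelihood contrast could be fitted with 1 group. Pair ratios are log2 of TPM + 1, and log2 differences between libraries use CPM + 0.5. Transcript classes follow the M21 annotation, and coding entries with an open end are called incomplete. Near copies were sought by blastn, and sequences were read from the mm10 transcripts. The text names all 33 genes and, of each partner list, the 2 highest, the lowest and the 1 with the widest difference. Some partner genes under this rule are counted in their lists but not reported here. Counts simulated for the same 17190 genes held counting error only, without further spread between libraries. On them the test recovered 46.0% of changes of 1.2-fold, 68.0% of 1.5-fold, 78.0% of 2-fold and 100.0% of 4-fold. It made 9 calls among 16990 unchanged genes, which gives no error rate for real libraries that differ beyond counting error. Alternatives used DESeq2 1.42.0 size factors, other filters and thresholds, posterior mean values, FPKM, the smaller table, a length and GC trend removed and each library left out. Settings on complete coding transcripts, on the longest coding transcript and without Hdac1 were added after seeing the data. Scripts ran on Python 3.11.15 with pandas 2.3.3, scipy 1.17.1 and numpy 2.4.6.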

Additional observations from a re-analysis of the deposited data

How the results depend on the processing

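The count of detected genes stayed at 30 to 32 under all settings run. The count of genes that differ between libraries was 30 in the setting reported and 22 to 25 with 1 library left out, and it fell to 7 when a 1.5-fold difference was also required. Among 83 partner genes, 49 to 66 passed with 1 library left out, and the 49 came without library 3. The median level of 30.19 TPM was 27.51 to 34.69 with 1 library left out, 20.81 on complete coding transcripts and 19.26 as FPKM, which is another scale. The log2 ratio of deacetylase to acetyltransferase sums was 1.41 to 1.49 with 1 library left out, 0.82 in the smaller table and 1.00 without Hdac1. Pairs larger than the spread numbered 15 to 16 with 1 library left out. Genes with 1 main transcript numbered 16 to 17 with 1 library left out and 5 at a threshold of 75%.

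Pair ratios that changed sign and were larger than the spread as reported or in the alternative were, in the smaller table per length, Hdac1 to Hdac2 (-1.91), Hdac1 to Hdac3 (-1.53) and Hdac4 to Hdac5 (-0.22). On complete coding transcripts they were Hdac6 to Hdac10 (0.38), Sirt3 to Sirt4 (1.09), Kat5 to Kat8 (-0.68) and Ncor1 to Hdac3 (-0.72). Per longest coding transcript Ncor1 to Hdac3 was -0.37, and with 1 library left out Kat6a to Kat6b ran from -0.058 (without library 2) to 0.21 (without library 3). Sign changes of ratios within the spread in both settings were seen for Kat2a to Kat2b in the smaller table (0.30), without library 1 (0.022), on complete coding transcripts (0.22) and per longest coding transcript (0.54). Others were Ep300 to Crebbp on complete coding transcripts (-0.23) and per longest coding transcript (-0.14), Sirt3 to Sirt4 per longest coding transcript (0.32), and Kat5 to Kat8 per longest coding transcript (-0.46) and without library 1 (-0.098). The causes were not tested. With the length and GC trend removed, 21 genes were lowest in library 1, 0 lowest in library 2 and 4 highest in library 1. By TPM, 1 gene was lowest in library 2 and 4 were highest in library 3, and by the smaller table's counts, 5 were lowest in library 2. Shares of all genes in these settings are not reported here. No paired analysis was possible because there was only 1 group. Of the calls of single genes between libraries, 29 were lost and 2 gained over all alternatives. The libraries come from 1 biological sample, so no value here covers variation between animals.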
